A study of Mus musculus with 20 samples.

Results

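The Rtl1-antisense miRNAs are a run of 5 hairpins (precursors mmu-mir-431, mmu-mir-433, mmu-mir-127, mmu-mir-434 and mmu-mir-136) that lie opposite the coding sequence of the retrotransposon-like gene Rtl1 in the imprinted Dlk1-Dio3 region of the mouse genome. Members were taken by precursor name, both arms of each hairpin, from a table of small RNA read counts in mouse serum. This gave 10 mature arms of 1915 mature names in the table. All 10 had at least 1 read, and 8 passed the filter on low counts and are among the 360 names tested. The remaining arms, miR-431-3p and miR-433-5p, are given as counts.

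Serum of female mice was compared in 4 groups of 5 libraries: Ames dwarf mice at 21 to 22 months (old dwarf), normal mice at 21 to 22 months (old normal), Ames dwarf mice at 5 to 6 months (young dwarf) and normal mice at 5 to 6 months (young normal). The labels give one strain entry for all libraries, Ames dwarf on a heterogeneous genetic background. They state neither the genotype of the normal mice nor whether the samples came from separate mice, so p-values measure the spread between these samples, which may be technical. Ames dwarf mice lack growth hormone, prolactin and thyrotropin and are long-lived. The series asks how circulating small RNA changes with age in each genotype.

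In the Dlk1-Dio3 region the protein-coding genes Dlk1, Rtl1 and Dio3 are expressed from the paternal chromosome, and the long non-coding RNAs Meg3, Rian and Mirg and the miRNAs of the region from the maternal one. The miRNAs opposite Rtl1 are fully complementary to the Rtl1 transcript, and in mice they direct its cleavage. Among them miR-127 acts on Rtl1 in the placenta, miR-431 on the satellite-cell factor Pax7 in mouse muscle, and miR-433 on the osteoblast factor Runx2 in mouse mesenchymal cells. The miRNAs of the region are abundant in the embryo, the placenta and the brain.

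On GRCm38 the 5 hairpins span 4942 bases of the plus strand, chr12:109590447-109595388, and Rtl1 runs on the minus strand over chr12:109589193-109600330 (GENCODE M21). All 5 hairpins lie within exon 2 of Rtl1, opposite coding sequence. In genome order they are mir-431 (chr12:109590447-109590537), mir-433 (chr12:109591715-109591838), mir-127 (chr12:109592846-109592915), mir-434 (chr12:109594506-109594599) and mir-136 (chr12:109595327-109595388), with 727 to 1590 bases between neighbours. The mature sequences of the 8 tested arms follow, from RefSeq on GRCm38.p6, because they show that each can be told apart from the rest. The pooled reads of miR-136-3p and miR-127-5p had another start, given further below. Capitals mark the seed, bases 2 to 8.
miR-431-5p: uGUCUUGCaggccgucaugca
miR-433-3p: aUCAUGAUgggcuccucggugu
miR-127-5p: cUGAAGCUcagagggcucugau
miR-127-3p: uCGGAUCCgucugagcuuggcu
miR-434-5p: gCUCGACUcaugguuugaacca
miR-434-3p: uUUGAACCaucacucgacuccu
miR-136-5p: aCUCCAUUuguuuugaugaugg
miR-136-3p: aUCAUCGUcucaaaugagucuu

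The 10 arms carry 10 distinct seeds, and the RefSeq table lists no other mouse mature miRNA with any of them. Each arm has exactly 1 perfect antisense match in the Rtl1 transcript. For miR-127-3p, the most abundant member, the matching stretch of the Rtl1 transcript is given below, the whole of it pairing with the miRNA.
Rtl1 site of miR-127-3p: agccaagctcagacggatccga

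None of the 10 arms shared its counts with another name in the table, and each came from a single precursor row, so no member's reads were split between hairpins. The hairpins of mir-434 and mir-136, whose arms differed most in their share of reads between libraries, are shown with both mature arms in capitals.
mir-434: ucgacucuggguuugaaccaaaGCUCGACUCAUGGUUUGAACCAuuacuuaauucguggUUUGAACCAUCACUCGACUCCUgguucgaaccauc
mir-136: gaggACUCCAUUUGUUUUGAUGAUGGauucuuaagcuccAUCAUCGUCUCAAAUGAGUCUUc

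Libraries held 1343137 to 4710263 miRNA counts. Levels are in CPM, the counts scaled to a common depth after library sizes were adjusted with TMM factors, which are scaling factors that offset differences in composition. The mean log2 CPM of the 8 tested members placed the libraries in an order with a wide step in it. The 5 old normal libraries lay lowest, at 1.52 to 2.39, followed by young normal replicates 1 and 4 at 2.65 and 3.0, old dwarf replicates 3 and 2 at 3.33 and 3.74, and young dwarf replicate 1 at 3.97. The other 10 libraries lay at 5.25 to 6.50. Thus the dwarf groups and the young normal group each held libraries at both levels, and the old normal group held libraries at the low level alone. The same 10 libraries were the lowest for 6 of the 8 tested members, and 9 of these 10 were for miR-431-5p and miR-433-3p.

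Counted over all 10 arms, the members took 0.252%, 0.0234%, 0.0151%, 0.183% and 0.246% of the counts of the 5 old dwarf libraries (replicates 1 to 5), against 0.00552%, 0.00713%, 0.00415%, 0.0115% and 0.00748% in old normal libraries. In young dwarf libraries the shares were 0.0388%, 0.262%, 0.359%, 0.184% and 0.299%, against 0.011%, 0.191%, 0.0827%, 0.0122% and 0.225% in young normal libraries. These shares use no scaling factor. Every old dwarf library exceeded every old normal library, while the young groups overlapped.

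miR-127-3p made up 48.5% of the members' reads, miR-434-3p 25.9% and miR-136-3p 15.4%. By median CPM over the 20 libraries these arms stood at 290.5, 206 and 99.4 CPM. Next came miR-434-5p at 24.4 CPM, miR-136-5p at 22.1 CPM and miR-431-5p at 7.63 CPM, then miR-127-5p at 3.65 CPM and miR-433-3p at 1.48 CPM. miR-431-3p had 41 reads in all libraries and miR-433-5p a single read. Between neighbours in this order the ranges over libraries overlapped within the old dwarf, the young dwarf and the young normal group. In the old normal group miR-136-3p overlapped neither miR-434-3p nor miR-434-5p, and the other neighbours overlapped.

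**Figure D1:**
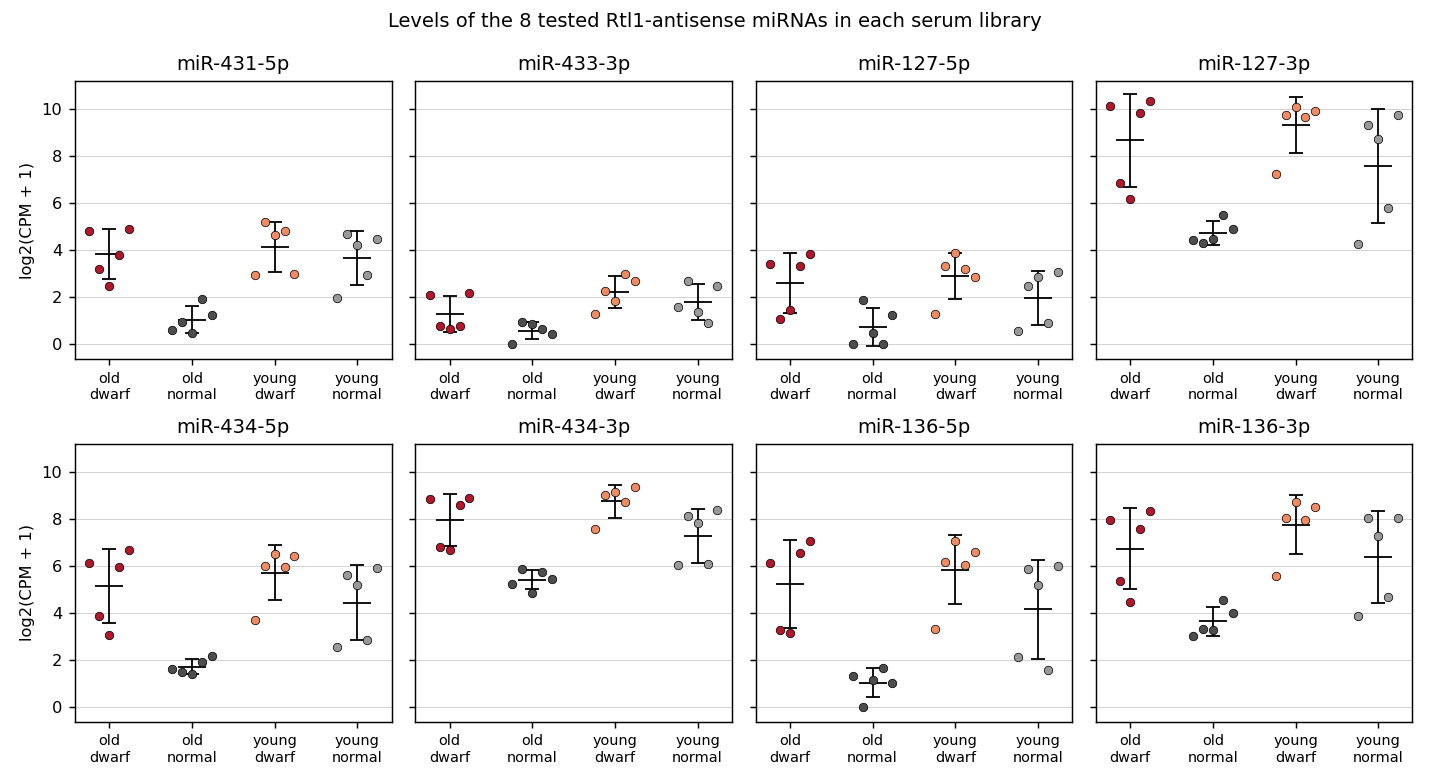
Levels of the 8 tested members as log2(CPM + 1), 1 point per serum library, with the mean and SD of each group of 5 as bars. The old normal group has the lowest mean in each panel, and the other 3 groups hold both high and low libraries, as for miR-127-3p with 71.6 to 1310.3 CPM in old dwarf libraries, against 18.8 to 44.7 CPM in old normal libraries.

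Old dwarf and old normal serum were compared first, which asks how the genotypes differ at the later age. Of the 8 tested members, 7 were higher in old dwarf serum and none was lower (edgeR quasi-likelihood test, adjusted p under 0.05, Benjamini-Hochberg over the 360 names). Of all tested names, 16.1% were called higher and 10.3% lower, and 47.8% had a log2 fold change above 0, as did all 8 members. The members' median log2 fold change was 3.74, beside -0.06 over all tested names. In 5 of the 8 members every old dwarf library exceeded every old normal library, against 7.78% of all tested names. In old normal libraries miR-431-5p had 1 to 5 reads, miR-127-5p and miR-136-5p 0 to 4, and miR-434-5p 2 to 10. These arms passed the filter on low counts through the groups where they are high. The counts of 7 of 8 and 5 of 8 are therefore not independent support. In bulk serum, fewer releasing cells and less miRNA from each cell cannot be told apart.

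miR-127-3p, which in human cells also acts on the germinal-centre repressor BCL6, had 1117, 117, 71.6, 932 and 1310.3 CPM in old dwarf libraries, against 20.6, 18.8, 21.1, 44.7 and 29.2 CPM in old normal libraries. The groups did not overlap, although old dwarf replicates 2 and 3 stood far below replicates 1, 4 and 5. The log2 fold change was 4.72 ± 0.95 (SE, n = 5 each, edgeR adjusted p 0.00304). Its other arm, miR-127-5p, had 9.69, 1.08, 1.69, 8.87 and 13.4 CPM in old dwarf libraries, against 0, 2.69, 0.397, 0 and 1.37 CPM in old normal libraries, with a log2 fold change of 3.04 ± 0.93 (edgeR adjusted p 0.0235). Here the groups overlapped, and the old normal values rest on at most 4 reads a library. The call of miR-127-5p was lost in 4 of 20 fits that left out 1 library, those without old normal replicate 1 or 3 or old dwarf replicate 1 or 5 (edgeR adjusted p 0.0561, 0.056, 0.0555 and 0.0795).

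miR-434-3p, reported in mouse muscle to act on the translation factor eIF5A1, had 457, 113, 103, 382 and 479 CPM in old dwarf libraries, against 36.7, 57.3, 27.4, 51.8 and 41.9 CPM in old normal libraries. The log2 fold change was 2.84 ± 0.53 (edgeR adjusted p 0.00304). The lowest old dwarf library held more than the highest old normal one, and this arm had the smallest standard error of the 8. miR-434-5p, from the same hairpin, had 69.4, 13.6, 7.32, 60.7 and 103 CPM in old dwarf libraries, against 2.01, 1.79, 1.59, 2.72 and 3.43 CPM in old normal libraries, a log2 fold change of 4.40 ± 0.83 (edgeR adjusted p 0.00304). Again the groups did not overlap.

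miR-136-5p, from the hairpin closest to the start of the Rtl1 coding sequence, had the largest fold change of the members. It had 69.4, 8.6, 7.89, 92.8 and 134 CPM in old dwarf libraries, against 1.51, 0, 1.19, 2.18 and 1.03 CPM in old normal libraries, with a log2 fold change of 5.59 ± 1.10 (edgeR adjusted p 0.00304). The groups did not overlap, and the old normal values rest on 0 to 4 reads a library. miR-136-3p had 248, 39.8, 20.8, 190 and 324 CPM in old dwarf libraries, against 7.04, 8.96, 8.74, 22.3 and 15.1 CPM in old normal libraries, a log2 fold change of 3.71 ± 0.85 (edgeR adjusted p 0.0056). Old dwarf replicate 3 lay within the old normal range, so these groups overlapped.

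miR-431-5p, which in mouse muscle acts on Pax7, had 27.5, 8.24, 4.51, 13 and 29.3 CPM in old dwarf libraries, against 0.503, 0.896, 0.397, 2.72 and 1.37 CPM in old normal libraries. The groups did not overlap, and the log2 fold change was 3.76 ± 0.75 (edgeR adjusted p 0.00304). Its partner miR-431-3p had 7 reads in the old dwarf and 0 reads in the old normal libraries, where 0 of 13303269 counts allows up to 0.289 CPM. miR-433-3p, the Runx2-directed member, was the exception. It averaged 1.73 ± 1.48 CPM in old dwarf libraries, against 0.516 ± 0.360 CPM in old normal ones (SD, n = 5 each), and its log2 fold change of 1.73 ± 0.80 did not pass (edgeR adjusted p 0.0998). Old dwarf libraries held 1 to 7 reads of it and old normal libraries 0 to 2.

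These calls depend on how library differences are modelled. The red-cell miRNA miR-451a over miR-23a-3p, as the log2 of their counts, serves as a haemolysis index. It was 5.38 ± 0.44 in old dwarf and 4.30 ± 0.70 in old normal libraries (SD, n = 5 each). The ranges, 4.90 to 6.09 in old dwarf and 3.13 to 4.83 in old normal libraries, did not overlap. Index and group therefore cannot be told apart in this comparison, and the part of haemolysis in the members' difference was not tested. The index has miR-451a as its only red-cell miRNA. A list of 5 erythroid miRNAs, summed in each library, did not follow it. For old normal libraries the median sum was 439284 CPM, above the median of 355946 CPM for old dwarf libraries, and the ranges overlapped. Whether the index reflects haemolysis in these libraries was not tested. With this index as a term in the model 0 of 8 members were called, as were 0 of the 360 names (0.0%), against 95 of 360 without it. The log2 fold changes of the 7 members above were then 2.45 to 4.54, against 2.84 to 5.59 without the index, and their smallest adjusted p was 0.093 (edgeR). An exact permutation test for each name, adjusted over all names, also called 0 of 8 members and 0 of 360 names (0.0%), with differences of 2.46 to 4.73 on the log2 scale for the same 7 members (smallest adjusted p 0.0635). Its unadjusted p cannot go below 0.00794 with 5 libraries against 5. The 5 members whose groups did not overlap reached this floor, and its adjusted value over the 360 names was 0.0635. The adjusted value of the floor depends on how many names reach it. With the number that did here, even a fully separated name could not be called. The 0 of the permutation test therefore does not show that a difference was lost. In both tests 0 of 360 names were called. In a fit of only the 10 libraries compared, miR-431-5p, miR-127-5p and miR-433-3p did not pass the filter on low counts. All 5 members that did were called, against 21.0% of the 300 names tested there. Of these, miR-434-5p and miR-136-5p had 2 to 10 and 0 to 4 reads in old normal libraries, against at least 13 and 14 in old dwarf libraries. They passed the filter through the old dwarf group, so 5 of 5 is not independent support.

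The next comparison, old normal against young normal serum, asks how the members differ with age in normal mice. It uses the same old normal libraries as the one above, so these results are not independent. Of the 8 tested members 7 were lower in old normal serum and none was higher (edgeR, adjusted p under 0.05), while 10.6% of all tested names were called lower and 5.0% higher. All 8 members lay below 0, and 49.7% of all names lay above it. The median log2 fold change was -3.56 for the members and 0.00 for all tested names. The groups did not overlap for 3 of the 8, miR-431-5p, miR-434-5p and miR-434-3p, against 3.06% of all tested names. Here too the arms with few reads in old normal libraries passed the filter through the groups where they are high. The counts of 7 of 8 and 3 of 8 are therefore not independent support.

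miR-127-3p had 20.6, 18.8, 21.1, 44.7 and 29.2 CPM in old normal libraries, against 18.4, 641, 430.7, 54.3 and 873 CPM in young normal libraries. Young normal replicate 1 lay below every old normal library, and the other 4 young normal libraries lay above them all. The log2 fold change of old normal over young normal was -3.90 ± 0.92 (edgeR adjusted p 0.0115). miR-434-3p had 36.7, 57.3, 27.4, 51.8 and 41.9 CPM in old normal libraries, against 64.1, 278, 225, 66.1 and 336 CPM in young normal libraries. The groups did not overlap, and the log2 fold change was -2.18 ± 0.52 (edgeR adjusted p 0.0115). Thus miR-434-3p separated the groups, while miR-127-3p did not because of young normal replicate 1.

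The other tested arms of the mir-434, mir-136 and mir-431 hairpins were lower too. miR-434-5p averaged 2.31 ± 0.760 CPM in old normal libraries, against 30.8 ± 24.7 CPM in young normal libraries (log2 fold change -3.68 ± 0.81, edgeR adjusted p 0.0115). miR-136-5p averaged 1.18 ± 0.794 CPM in old normal libraries, against 32 ± 28.6 CPM in young normal libraries, and miR-136-3p 12.4 ± 6.32 and 142.7 ± 121.2 CPM in the same groups (log2 fold changes -4.63 ± 1.08 and -3.51 ± 0.84, edgeR adjusted p 0.0115 each). miR-431-5p averaged 1.18 ± 0.945 CPM in old normal libraries, against 14.8 ± 9.52 CPM in young normal libraries (log2 fold change -3.60 ± 0.75, edgeR adjusted p 0.0115). miR-431-3p had 0 reads in old normal libraries, against 17 reads, 1 to 9 a library, in young normal libraries.

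The 2 least abundant tested members gave less firm results. miR-433-3p had 5 reads in the old normal and 38 reads in the young normal libraries, a log2 fold change of -2.41 ± 0.75 (edgeR adjusted p 0.032). Leaving out young normal replicate 2 or 5 or old normal replicate 1 or 5 ended this call (edgeR adjusted p 0.0875, 0.0914, 0.0845 and 0.0646). miR-127-5p had 8 reads in the old normal and 56 reads in the young normal libraries, and its log2 fold change of -2.25 ± 0.94 did not pass (edgeR adjusted p 0.087). The haemolysis index was 4.30 ± 0.70 in old normal and 5.45 ± 0.61 in young normal libraries (SD, n = 5 each). The ranges, 3.13 to 4.83 and 4.66 to 6.29 in the same groups, overlapped little, so index and group are again hard to tell apart. With the index in the model 0 of 8 members were called (smallest adjusted p 0.181), and 1 of 360 names (0.278%), against 56 of 360 without it. The log2 fold changes of the 7 members were then -3.64 to -2.04, against -4.63 to -2.18 without the index. The exact permutation test called 0 of 8 members and 0 of 360 names (0.0%), with differences of -3.57 to -1.69 for the same 7 (smallest adjusted p 0.102). That adjusted p again belongs to the smallest p the test allows. With the number of names that reached it, even a fully separated name could not be called. In a fit of only the 10 libraries compared 4 members passed the filter and all 4 were called, against 11.2% of the 304 names tested there. miR-431-5p, miR-433-3p, miR-127-5p and miR-136-5p did not pass that filter. miR-434-5p, with 2 to 10 reads in old normal and 10 to 170 in young normal libraries, passed it through the young normal group. The count of 4 of 4 is therefore not independent support.

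**Figure D2:**
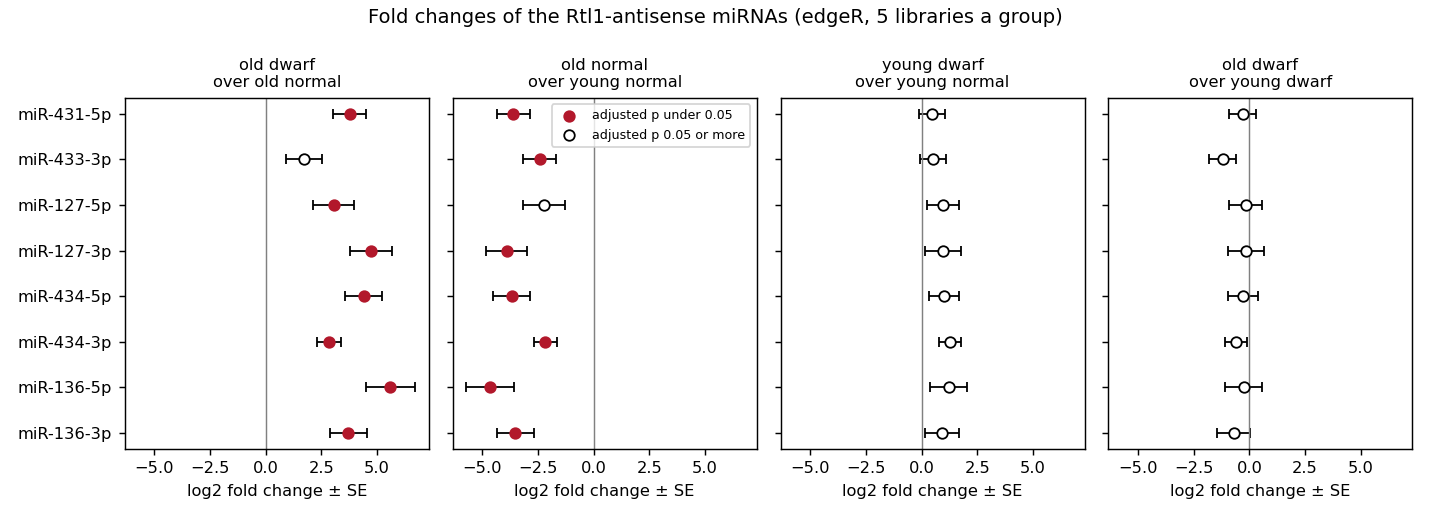
Log2 fold changes with their SE (edgeR, 5 libraries a group) of the 8 tested members in the 4 pairwise comparisons. Filled points have an adjusted p under 0.05: 7 of 8 are positive for old dwarf over old normal, 7 of 8 are negative for old normal over young normal, and none is filled in the comparisons of young dwarf with young normal and of old dwarf with young dwarf.

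Young dwarf against young normal serum asks how the genotypes differ at the earlier age. In these libraries 0 of 8 members passed (edgeR), as did 0.0% of all tested names in each direction. At an unadjusted p under 0.05 there was 1 member, miR-434-3p, against 3.89% of all names in each direction, and DESeq2 called 0 of 8, and 1.67% of all names. miR-434-3p had 188, 512, 572, 419 and 654 CPM in young dwarf libraries, beside the young normal values above, with a log2 fold change of 1.27 ± 0.50 (edgeR adjusted p 0.407). The groups overlapped because young dwarf replicate 1 stood low. All 8 log2 fold changes were above 0, from 0.46 for miR-431-5p to 1.27, as were 45.3% of all tested names.

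miR-127-3p had 150.4, 855, 1113, 807 and 976 CPM in young dwarf libraries, and its log2 fold change over young normal libraries was 0.95 ± 0.82 (edgeR adjusted p 0.733). miR-136-5p averaged 74.5 ± 45.3 CPM in young dwarf libraries, against 32 ± 28.6 CPM in young normal libraries (SD, n = 5 each). In young dwarf replicate 5, miR-431-5p did not follow the other members: it stood at 7.01 CPM from 18 reads, near the 6.64 CPM of replicate 1, while miR-127-3p stood at 976 CPM in replicate 5 and 150.4 CPM in replicate 1. The count of miR-431-5p per 100 counts of miR-127-3p was 0.719 in replicate 5 and 2.19 to 4.42 in the other young dwarf libraries.

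Old dwarf against young dwarf serum asks how the members differ with age in dwarf mice. None of the 8 passed (edgeR adjusted p 0.997 for each), 0 had an unadjusted p under 0.05, and DESeq2 called 0 of 8, and 0.556% of all names. Among all names 0.556% were called higher and 0.0% lower, 2.22% were higher and 1.67% lower at an unadjusted p under 0.05, and 53.1% lay above 0. The 8 log2 fold changes lay between -1.20 (miR-433-3p) and -0.14 (miR-127-3p), with standard errors of 0.49 to 0.83. miR-127-3p averaged 709.6 ± 577.7 CPM in old dwarf libraries, against 780.1 ± 371.4 CPM in young dwarf libraries, and miR-434-3p 306.6 ± 185.3 and 468.9 ± 179.0 CPM in the same groups (SD, n = 5 each). A p that misses the threshold does not show that these levels were alike.

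The difference between the age effects of the genotypes, dwarf minus normal, was tested directly. None of the 8 members passed (edgeR), while 0.556% of all names were called higher. At an unadjusted p under 0.05 there were 6 of 8, against 11.7% of all names. The estimates were log2 4.37 ± 1.35 for miR-136-5p, 3.39 ± 1.04 for miR-434-5p and 3.30 ± 0.95 for miR-431-5p (edgeR adjusted p 0.134 each), and 3.77 ± 1.19 for miR-127-3p (edgeR adjusted p 0.15). The other four lay between 1.21 and 2.80 with adjusted p of 0.203 to 0.525. The test called 4 of 8 members with DESeq2, against 20 of all 360 names (5.56%), and 4 of 10 when no name was filtered out, against 13 of 1191 (1.09%), in both cases miR-431-5p, miR-127-3p, miR-434-5p and miR-136-5p.

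The hairpins sit between other miRNA genes of the region. Outside the 5 hairpins, 103 mature names of the region were in the table, 77 had a read and 23 were tested. miR-299a-3p and miR-299b-3p had the same 217 reads and the same fits, so 1 set of counts stands under 2 names among the 23. In old dwarf against old normal serum 19 of these 23 were called higher and none lower, against 16.1% and 10.3% of all tested names. Their median log2 fold change was 3.54, or 3.45 with miR-369-5p, which had no read in old normal libraries, at the bound that 3 counts allow. The members' median was 3.74. On the Meg3 side 4 of 4 tested names were higher, among them miR-540-3p and miR-540-5p (log2 fold changes 4.30 and 4.40, edgeR adjusted p 0.0072 and 0.0147), as were miR-341-3p, the only tested name from Rian, and 14 of 18 names from Mirg. In Mirg the smallest p belonged to miR-541-5p, miR-411-5p and miR-410-3p, with log2 fold changes of 4.63, 4.91 and 3.45 (edgeR adjusted p 0.00304 each).

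In old normal against young normal serum 15 of the 23 were called lower, against 10.6% of all tested names. All 23 lay below 0, with a median of -2.76 beside -3.56 for the members. Names placed between or across the hairpins had no read. miR-432 (chr12:109594956-109595030), between mir-434 and mir-136, and both arms of mir-3071 (chr12:109595318-109595397), which overlaps mir-136 on the opposite strand, were at 0 of 48692970 counts, which allows up to 0.0632 CPM.

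**Figure D3:**
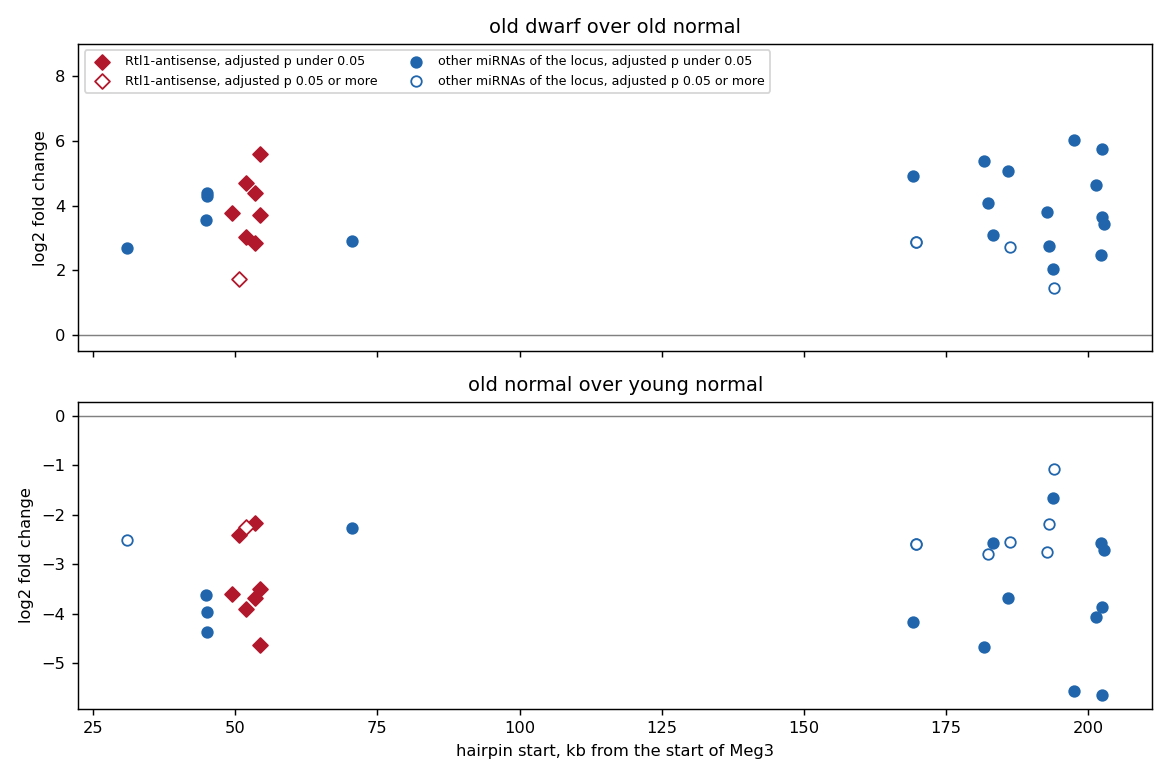
Log2 fold changes of the 31 tested miRNAs of the Dlk1-Dio3 region against the distance of the hairpin from the start of Meg3 in kb, for old dwarf over old normal (upper) and old normal over young normal (lower). Diamonds are the 8 Rtl1-antisense arms, circles the 23 other names, and filled symbols have an adjusted p under 0.05. The circles of miR-299a-3p and miR-299b-3p coincide, as both names hold the same reads. All 31 lie above 0 in the upper and below 0 in the lower plot.

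The share of a hairpin's reads that came from its 3p arm needs no library size. Over all libraries it was 5.84% for mir-431, 99.1% for mir-433, 99.0% for mir-127, 87.4% for mir-434 and 78.2% for mir-136. mir-431 thus gave mainly its 5p arm and the other 4 hairpins mainly the 3p arm. Of 15 exact permutation tests on libraries with at least 10 counts over both arms, 0 passed after Benjamini-Hochberg adjustment and 3 had an unadjusted p under 0.05. These comparisons reuse the same libraries and are not independent of one another.

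For mir-136 the 3p share was 78.1%, 82.2%, 72.5%, 67.1% and 70.7% in old dwarf libraries, against 82.4%, 100%, 88.0%, 91.1% and 93.6% in old normal libraries. The groups did not overlap, with 74.2% ± 6.00 in old dwarf and 91.0% ± 6.55 in old normal libraries (SD, n = 5 each), a difference of -16.9 percentage points (2-sided exact permutation p 0.00794, the smallest 5 against 5 allows, adjusted p 0.0794). The separation was narrow, as old normal replicate 1 at 82.4% lay just above old dwarf replicate 2 at 82.2%. The old normal shares rest on 10 to 47 reads a library, and the 95% Wilson interval of the 10-read library, replicate 2, reached down to 72.2%. For mir-434 the share was 87.6% ± 4.05 in old dwarf and 94.7% ± 1.62 in old normal libraries, a difference of -7.15 points (exact permutation p 0.0159, adjusted p 0.0794). Old normal serum exceeded young normal serum in the same measure by 6.54 points, with 94.7% ± 1.62 in old normal and 88.2% ± 3.73 in young normal libraries (exact permutation p 0.0159, adjusted p 0.0794).

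The mir-434 share also varied within groups alongside the members' level. It was 93.3% in old dwarf replicate 3, 94.1% in young dwarf replicate 1, and 93.0% and 91.4% in young normal replicates 1 and 4, 4 of the 5 libraries of these groups in which the members were low. In old dwarf replicate 2, the fifth, it was 89.2%, and in the other libraries of these groups it was 82.3% to 89.2%. For mir-127 the share was 97.7% to 99.1% in old dwarf libraries, against 87.5% to 100% in old normal libraries, where replicate 2 had 3 of 24 reads from the 5p arm.

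**Figure D4:**
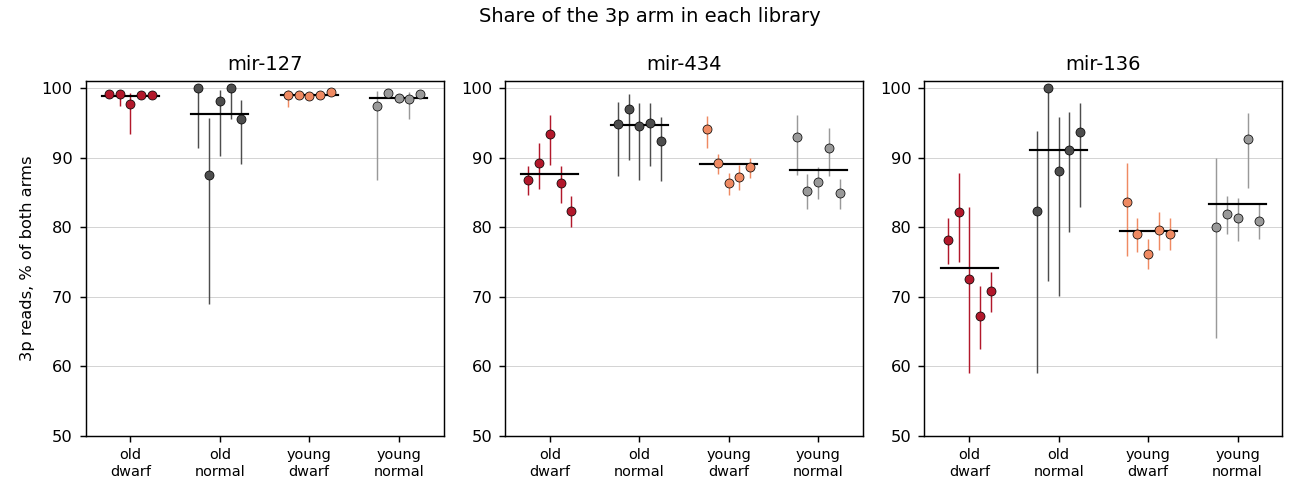
Share of reads from the 3p arm of mir-127, mir-434 and mir-136 in each library, with 95% Wilson intervals (counting error only) and the group mean as a line. The vertical axis starts at 50%, and the mir-136 shares of 67.1% to 82.2% in old dwarf libraries lie below those of 82.4% to 100% in old normal libraries.

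The authors' deposited report on hairpins detected in all samples together gives a consensus sequence for each strand of mir-127, mir-136, mir-433 and mir-434. In 6 of the 8 strands the consensus began at the RefSeq start of the arm, so the seed was the RefSeq one. Among these 6 the strand of miR-433-5p rests on 1 read. The consensus of miR-136-3p began 1 base upstream and that of miR-127-5p 2 bases downstream, and both sequences are given because their seeds differ from RefSeq, with the consensus seed in capitals.
miR-136-3p consensus: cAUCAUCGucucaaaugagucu
miR-127-5p consensus: gAAGCUCAgagggcucugauu

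The members' levels went together over the 20 libraries. Pearson's r of log2 CPM ranged from 0.73 to 0.989 over the 28 pairs of tested members, and from 0.572 to 0.987 after group means were subtracted. These and the following r are descriptions over 20 libraries that share scaling and fall into a low and a high set, and they carry no test. Outside the region the 5 names most like the members' mean were miR-199a-3p and miR-199b-3p (r 0.976 for each, Spearman's rho 0.904, r 0.968 without the 2 farthest libraries), which share all their counts, miR-101c and miR-101a-3p (r 0.951 for each, rho 0.917, r 0.946), and miR-224-5p (r 0.948, rho 0.896, r 0.932). miR-101c and miR-101a-3p had nearly the same levels, with means of 1031.352 and 1031.488 CPM in old dwarf libraries. Of the 30 tested names most like the mean, 6 were members, 16 were other names of the region and 8 lay outside it.

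miR-199a-3p, a miRNA of mesenchymal cells, averaged 900.6 ± 541.6 CPM in old dwarf libraries, against 208 ± 73.9 CPM in old normal libraries (SD, n = 5 each; log2 fold change 2.11 ± 0.57, edgeR adjusted p 0.0121). miR-224-5p averaged 21.6 ± 16.6 CPM in old dwarf libraries, against 3.76 ± 1.67 CPM in old normal libraries (log2 fold change 2.48 ± 0.64, edgeR adjusted p 0.0109). miR-101a-3p averaged 1031 ± 406 CPM in old dwarf libraries, against 421 ± 80.2 CPM in old normal libraries (log2 fold change 1.29 ± 0.35, edgeR adjusted p 0.0121). These names therefore differed in the same direction by less on the log2 scale than 7 of the 8 members.

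Lists of miRNAs typical of cell types were also compared with the members' mean, and some rose with it while others went against it. The muscle list (6 of 7 names tested) had an r of 0.829 with it (0.732 after group means were subtracted), and its summed level was 2016 to 5749 CPM in old dwarf libraries, against 322 to 4075 CPM in old normal libraries, with 0 of 6 names called between these groups. Of its 7 names only miR-206-3p had no read in the old dwarf, old normal or young normal libraries. The myeloid and platelet list (4 of 4 tested) had an r of -0.914 (-0.883 within groups), with sums of 19950 to 57459 CPM in old dwarf libraries, against 53371 to 74931 CPM in old normal libraries, and 1 of 4 names was called lower in old dwarf libraries. The lymphocyte list (3 of 3 tested, all called lower in old dwarf libraries) had an r of -0.749 (-0.378 within groups), with sums of 667 to 1444 CPM in old dwarf libraries, against 1580.1 to 4963 CPM in old normal libraries. Of all tested names 10.3% were called lower and 16.1% higher in old dwarf libraries.

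Sums of the neural list (1 of 6 tested, miR-128-3p) ran from 739 to 8680 CPM in old dwarf libraries, against 4647 to 14037 CPM in old normal libraries (r -0.887, within groups -0.867), and those of the pituitary and islet list (1 of 3 tested, miR-7b-5p without a read) from 171 to 2295 CPM in old dwarf libraries, against 830.2 to 3927 CPM in old normal libraries (r -0.857, within groups -0.835). The erythroid and liver lists followed the members' mean less closely, with r of 0.124 and 0.379, and -0.292 and 0.308 within groups, so that the erythroid value turned its sign. The erythroid list summed to 304858 to 569810 CPM in old dwarf libraries, against 390367 to 581840 CPM in old normal libraries, and the liver list to 9610 to 25788 CPM in old dwarf libraries, against 11223 to 15155 CPM in old normal libraries. miR-451a alone averaged 30615 ± 6767 CPM in old dwarf libraries, against 18409 ± 5950 CPM in old normal libraries (log2 fold change 0.73 ± 0.28, edgeR adjusted p 0.055). The part of these lists in the members' difference was not tested.

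The TMM factor was 0.698 to 1.26 in old dwarf, 0.674 to 0.906 in old normal, 0.937 to 1.51 in young dwarf and 0.754 to 1.44 in young normal libraries, with 0.674 to 0.995 in the 10 libraries where the members were lowest and 0.915 to 1.51 in the other 10. The part of library composition in the members' difference was not tested. With factors of 1 the members' calls were 7 of 8 in both of the first comparisons, as with TMM factors. Of all names, 21.7% were then called higher and 11.4% lower for old dwarf over old normal, and 2.5% higher and 26.9% lower for old normal over young normal. With upper-quartile factors 7 of 8 members were called lower in old normal against young normal serum, and of all names 33 of 360 were called higher (9.17%) and 36 of 360 lower (10%). With factors of 1 the median log2 fold change of all names was 0.23 in place of -0.06 for old dwarf over old normal, and -0.42 in place of 0.00 for old normal over young normal.

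**Figure D5:**
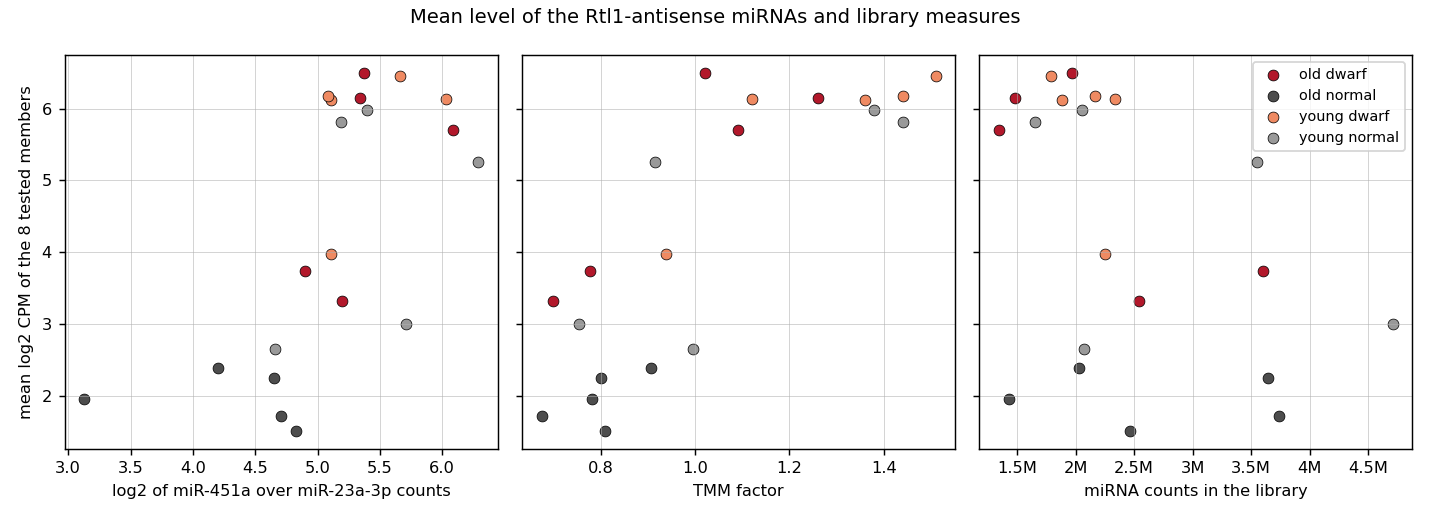
Mean log2 CPM of the 8 tested members in each library against the haemolysis index, the TMM factor and the miRNA counts of the library, coloured by group. Old normal libraries hold the lowest means, 1.52 to 2.39, with haemolysis indices of 3.13 to 4.83, and libraries of the other groups with means under 4 have TMM factors of 0.698 to 0.995.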

How the data were processed

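Small RNA libraries of serum were sequenced, per the labels' protocols. The build GRCm38 (mm10) and the tools Bowtie 0.12.8, bedtools and edgeR stand in the submitters' processing notes without a role for each. The deposited table holds whole-number read counts per mature and precursor pair in the miRDeep2 quantifier layout, per the file headers, and RPM values of the authors, which were not tested. The authors' deposited hairpin report gives a miRDeep2 score and pooled read counts. No value column was left unused (0 columns).

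For each name the precursor row with the highest total was used. Counts were tested with edgeR 4.0.16 (limma 3.58.1, R 4.3.3), quasi-likelihood, TMM factors, filter by group at a minimum count of 10, in 1 model of 4 groups over 20 libraries, with Benjamini-Hochberg adjustment over 360 names. SE is the size of the log2 fold change divided by the root of F. Log2 CPM for likeness used a prior count of 1. Arm shares were compared with exact permutation tests, adjusted over 15 tests. Alternatives were DESeq2 1.42.0, other scalings, filters and rows, the haemolysis index, a replicate block and leaving out libraries. The scripts were tested on simulated data. Intervals and floors (3 counts) cover counting error only. All 10 arms were described, other names of the region by smallest p (up to 3 a stretch), and the 5 names outside it most like the members' mean. Members, lists and tests were chosen with earlier results of these data known.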

Additional observations from a re-analysis of the deposited data

Results flagged for a closer look

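Of 47 groups of libraries looked at for 1 library far from the rest of its group (8 tested arms by CPM and the hairpins by 3p share), 2 held one, and chance alone marks about 1 in 20. The 3p share of mir-127 in old dwarf replicate 3 was 97.7%, below the other old dwarf libraries at 99.0% to 99.1%, and rests on 3 reads of the 5p arm of 130. The 3p share of mir-136 in young normal replicate 4 was 92.6%, above the other young normal libraries at 80.0% to 81.9%, and rests on 7 reads of the 5p arm of 95. No member's CPM was marked in any group.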

How the results depend on the processing

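The count of 7 of 8 members for old dwarf against old normal fell to 0 with the haemolysis index in the model and to 0 by the exact permutation test, and the count of 7 of 8 for old normal against young normal did so too (0 and 0). Among all 360 names the calls went to 0 and 0 in the first comparison, against 95, and to 1 and 0 in the second, against 56. With the number of names that reached its smallest possible p, that p became 0.0635 and 0.102 after adjustment. The permutation test therefore could not call even a fully separated name in either comparison. The haemolysis index separated the groups in the first comparison and nearly so in the second, so its part could not be told from that of the group. It rests on miR-451a as its only red-cell miRNA. The median sum of the erythroid list went the other way in both comparisons, with overlapping ranges. The log2 fold change of miR-127-3p was 3.99 and 3.98, against 4.72, and -3.18 and -2.88, against -3.90. With only the 10 libraries compared, where fewer names passed the filter, 5 of 5 and 4 of 4 tested members were called. Of all names tested there, 21.0% and 11.2% were called. Some members passed that filter only through the group where they are high, so these counts are not independent support. The interaction count of 0 became 4 with DESeq2 and 4 with no filter, where 20 of 360 and 13 of 1191 names were called, against 2 of 360. Leaving out 1 library gave 6 to 7 and 6 to 8 members in the first 2 comparisons and 0 in the others. Calls over all names were not counted in those fits. The replicate block gave 7 and 6 members, losing miR-433-3p in old normal against young normal serum (edgeR adjusted p 0.0608), and changed no other member's call. With the block 92 and 38 of all 360 names were called, against 95 and 56 without it. Levels showed no clear pairing by replicate number (13 of 30 same-number pairs correlated above 0.1, range -0.663 to 0.793, and 3 of 20 libraries matched best with their own number). Whether samples of the same number were handled together was not tested. Signs turned only among values that passed no test: for old dwarf against young dwarf, miR-127-5p was log2 0.0175 with the block, and leaving out 1 library gave -0.57 to 0.13 for miR-127-5p, -0.49 to 0.16 for miR-127-3p and -0.76 to 0.0365 for miR-136-5p. The 3p share difference of mir-431 between old and young dwarf serum was -2.21 points at a minimum of 30 counts, -0.586 at 1 count, -0.0294 as a log2 ratio and -1.04 to 1.63 without 1 library. Without 1 library that of mir-434 between young dwarf and young normal serum was -0.38 to 2.05, and that of mir-127 between old and young dwarf serum -0.33 to 0.0307. The cause of these changes was not tested. Among values of single arms and of arm shares, 418 under other settings and 1076 without 1 library kept their direction and their side of the threshold, while 29 and 8 no longer passed it and 9 and 1 newly did. In old normal libraries miR-433-3p had 0 to 2 reads, and miR-127-5p and miR-136-5p had 0 to 4 reads, so their levels there rest on few counts.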

Other observations

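Relative to miR-127-3p the members differed between libraries. miR-434-3p had 71.6 ± 47.1 counts per 100 counts of miR-127-3p in old dwarf and 174.5 ± 76.4 in old normal libraries, and 71.0 ± 30.8 in young dwarf and 120.7 ± 131 in young normal libraries (SD, n = 5 each). The young normal mean rests on replicate 1, at 347.4 from 38 reads of miR-127-3p. Without it the mean was 64.0, below that of young dwarf libraries, and the medians were 59.9 in young dwarf and 52.2 in young normal libraries. miR-434-5p, from the same hairpin, had 8.49 ± 2.37 in old dwarf against 8.94 ± 2.18 in old normal libraries, and 7.91 ± 0.518 in young dwarf against 12 ± 8.16 in young normal libraries. miR-136-3p had 26.1 ± 5.53 in old dwarf and 45 ± 7.20 in old normal libraries. These ratios were not tested.

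In the authors' deposited hairpin report the miRDeep2 score was 11847 for mir-127, 4777.1 for mir-136 and 63.1 for mir-433, but 1.5 for mir-434, whose 14092 reads exceeded the 115 reads of mir-433 and the 9361 reads of mir-136. mir-431, with 702 reads over both arms in the count table, was not among the known hairpins listed there.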
